A study of Mus musculus with 2 samples.

Results

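The genes described here make glutathione, attach it to other molecules, or remove superoxide and peroxides, together with Nrf2 (Nfe2l2) and Keap1, which regulate many of them. The list holds 38 genes chosen by name and function, with earlier results of these data known. A gene was read through every probe set annotated to its symbol alone. Of the 38 genes, 35 had such probe sets, 68 in all, of 18193 genes with a probe set on the array. Prdx1 was left out because its 5 probe sets were also annotated to a second gene, Gm21399, and Prdx5 and Prdx6 were not analysed here.

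The series compared the expression profile of primary osteoblasts from Slc39a13-KO mice with that of primary osteoblasts from wild-type mice, with 1 array for each. Slc39a13 (ZIP13) is a zinc transporter, and in the knockout a Neo cassette took the place of several of its exons in every cell of the mouse. Both cultures were grown in serum-containing medium from bone cells that collagenase and dispase had freed from the skull vault of newborn animals, and no further treatment is named in the labels. How many pups each culture came from, and their strain and sex, the sources used here do not give. A difference below is therefore one between 2 arrays, with no replicate check and no p-value.

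Glutathione is a tripeptide whose thiol is the main soluble reductant of the cell. Glutamate-cysteine ligase, built of the catalytic subunit Gclc and the modifier subunit Gclm, makes its precursor, and glutathione synthetase (Gss) completes it. Glutathione transferases couple it to reactive compounds, while glutathione peroxidases and peroxiredoxins reduce peroxides, and superoxide dismutases turn superoxide into hydrogen peroxide. Sod1 and Sod3 hold copper and zinc in the active site, whereas Sod2 holds manganese. The transcription factor Nrf2 binds the antioxidant response element of many of these genes, and Keap1 directs it to degradation in the absence of oxidants or electrophiles.

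Slc39a13 itself had a signal of 90.4 in the Slc39a13-KO array and 1309 in the wild-type array by its 1 probe set, so the labels of both arrays held for this gene. Whether that probe set lies in the deleted exons was not established. The median signal was 92.4 in the Slc39a13-KO array and 78.0 in the wild-type array. Of 11 listed osteoblast markers, Runx2, Bglap and Spp1 had no probe set annotated to that symbol alone and were not read. Of the 8 with a probe set, 6 were measured, of which 3 (Alpl, Dmp1 and Pth1r) were called higher and 0 lower. Ibsp and Phex were in both arrays below the signal floor defined in the next paragraph. Col1a2, a collagen chain of bone, had 25943 in the Slc39a13-KO array and 28504 in wild-type. Col1a1, its partner chain, had 7655 in the Slc39a13-KO array and 12230 in wild-type as means of 2 probe sets, whose log2 ratios had an SD of 1.02. Sp7, a transcription factor of osteoblasts, had 153 in the Slc39a13-KO array and 94.8 in wild-type. Pth1r, the parathyroid hormone receptor, had 1534 in the Slc39a13-KO array and 295 in wild-type. Alpl, the alkaline phosphatase of osteoblasts, and Dmp1, a matrix protein of osteocytes, had 197 and 383 in the Slc39a13-KO array and were below the floor in wild-type. Signals of markers of other cells also differed between the arrays, chondrocyte markers among them, and those values are given in the last paragraph of the Results.

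Signals were MAS5 values on a linear scale. A signal under 85.1, the median of all signals pooled, was raised to that floor, and a probe set counted as measured when at least 1 array lay above it. A gene was represented by the mean log2 ratio of Slc39a13-KO over wild-type across its measured probe sets, and it was called higher or lower when this mean was at least 2-fold and all its measured probe sets lay on 1 side. The SD between probe sets of 1 gene had a median of 0.34 on the log2 scale over all genes, which is a technical error only.

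A block of 8 antioxidant genes was lower in the Slc39a13-KO array and none was called higher. All 35 genes with a probe set were measured, and the 8 (22.9%) were Gstm2, Gsto1, Mgst1, Gclm, Nqo1, Gss, Gsta4 and Gclc. Over all 12269 measured genes 5.93% were called lower and 8.01% higher. The genes were listed with earlier results of these data known, so the contrast of these shares is not a test. The 8 ratios ran from 2.12-fold to 8.12-fold, all 8 genes lay above the floor in both arrays, and each of their 12 measured probe sets was itself at least 2-fold lower. Of the other 27 members, 14 had a log2 ratio above 0 and 13 below, from -0.83 to 0.93. The median over the 35 members was -0.17, beside 0.11 over all genes, and 54.3% of the members lay within 1.5-fold, beside 67.7% of all genes. The floor draws ratios of dim genes toward 0, and 30 of the 35 members lay above it in both arrays. How far the floor raised the share of all genes within 1.5-fold was not tested.

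**Figure D1:**
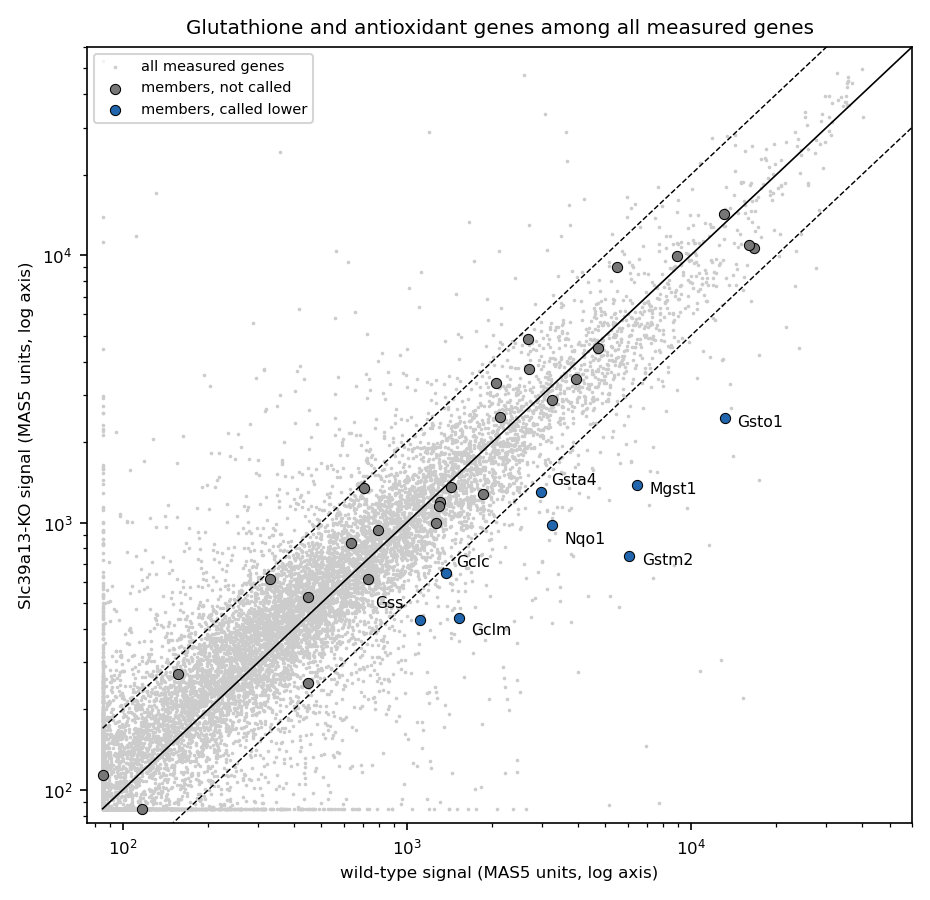
Slc39a13-KO signal (vertical axis) plotted against wild-type signal (horizontal axis), both in MAS5 units on log axes, for all 12269 measured genes (light grey) and the 35 antioxidant genes (dark grey, or blue if called lower). Equal signals fall on the solid line and 2-fold differences on the dashed lines. The 8 blue points lie below the lower dashed line, and 0 members lie above the upper one, where poly-A scaling would place 13.

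These directions depend on how the arrays are scaled. The 24 poly-A control probe sets, bacterial RNAs normally added before labelling, were all lower in the Slc39a13-KO array, and with the arrays scaled on them the median of all genes was 0.95. On that scale 3 members (Gstm2, Gsto1 and Mgst1) were called lower and 13 higher, against 1.72% and 46.5% of all genes, and the median of the members was 0.86. The 13 called higher were Gpx4, Gpx7, Gpx8, Gsr, Gstk1, Gstm5, Gstt1, Keap1, Mgst2, Prdx3, Prdx4, Sod3 and Txnrd1. All 8 genes of the block then still had log2 ratios below 0, from -1.99 for Gstm2 to -0.05 for Gclc. With median scaling and with quantile normalization the 8 genes were again called lower and no member higher.

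**Figure D2:**
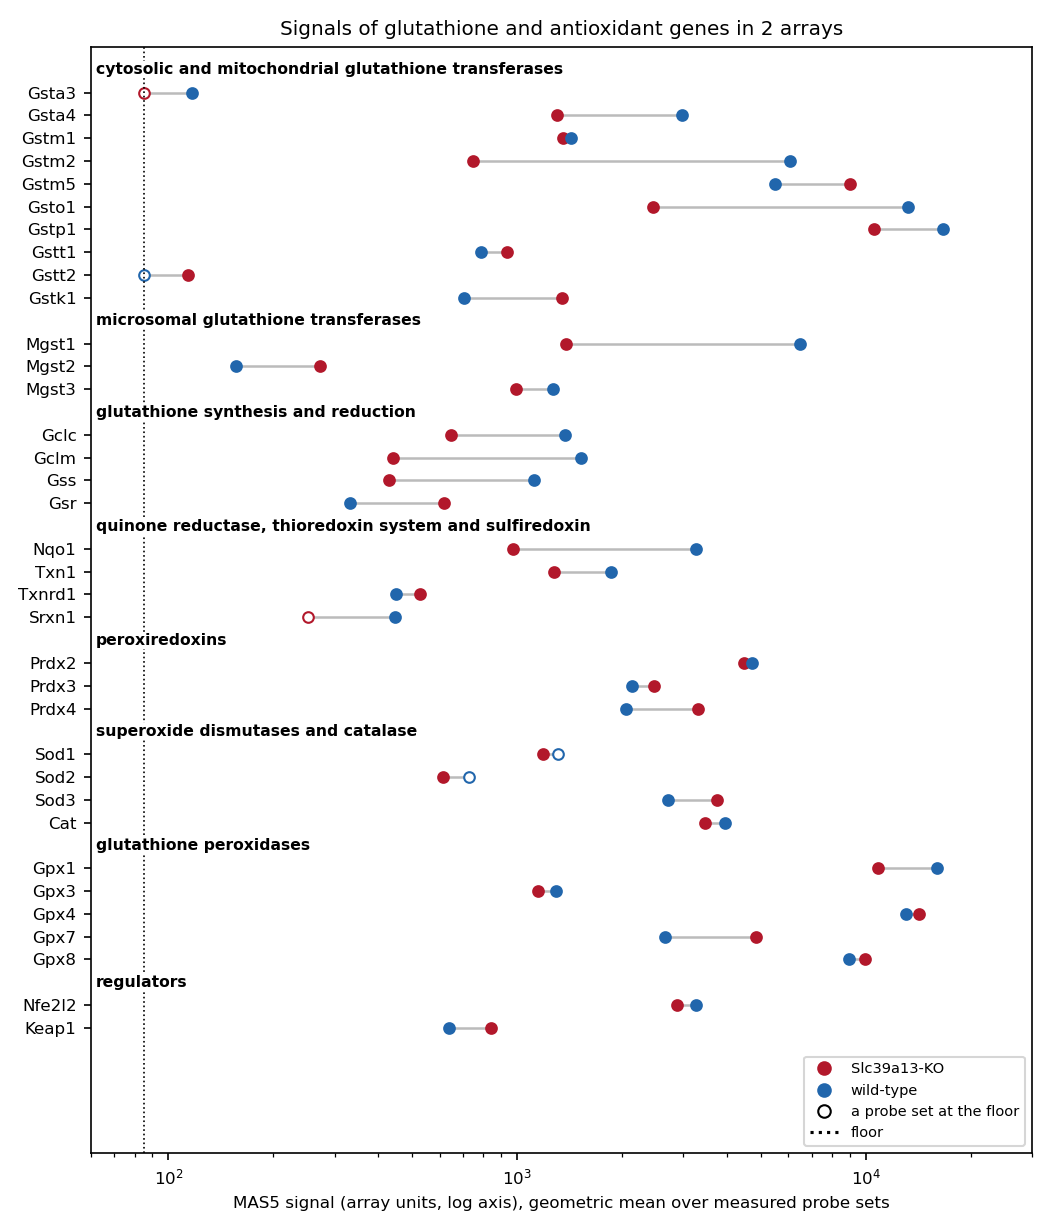
Signals of the 35 measured genes (horizontal axis, MAS5 units, log axis) in the Slc39a13-KO array (red) and the wild-type array (blue), each point the geometric mean over the measured probe sets of a gene, open where a probe set lay at the floor of 85.1 (dotted line). Points are to be compared within a gene and not between genes; the widest gaps are those of Gstm2, Gsto1 and Mgst1, with the Slc39a13-KO point on the left.

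Genes of glutathione synthesis were lower in the Slc39a13-KO array at both enzymatic steps, whereas the reductase that recycles glutathione was not. With poly-A scaling Gclm, Gss and Gclc were not called (log2 ratios -0.76, -0.34 and -0.05). The reductase gene Gsr was then called higher, at 1.94 beside 0.95 for all genes. Gclm, the modifier subunit that raises the efficiency of the ligase, had signals of 855 and 226 by its 2 probe sets in the Slc39a13-KO array, against 3532 and 657 in wild-type. Gclm was thus 3.46-fold lower, or -1.79 on the log2 scale (SD 0.36 between 2 probe sets). Both probe sets were well past 2-fold, and the brighter showed the larger difference.

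Gclc, the catalytic subunit, had signals of 885 and 473 in the Slc39a13-KO array, against 1874 and 1002 in wild-type. Its 2 probe sets gave the same log2 ratio of -1.08, and at 2.12-fold it was the member just inside the threshold. Gss had signals of 491 and 377 in the Slc39a13-KO array, against 1117 and 1118 in wild-type, a 2.60-fold difference, or -1.38 on the log2 scale (SD 0.27 between 2 probe sets). Gsr, glutathione reductase, which restores glutathione from its disulfide with NADPH, lay on the other side. It had signals of 697 and 546 in the Slc39a13-KO array, against 437 and 250 in wild-type, and its mean of 1.87-fold was not called. Both of its probe sets were above 0, with log2 ratios of 0.67 and 1.13.

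Promoter sequence is shown for 3 genes whose start region holds the core of the antioxidant response element. These are Gclm and Mgst1 of the block that was lower, and the zinc enzyme Sod1, which was not called. Each run is the 160 bases before the annotated start of the gene, taken from RefSeq (build GRCm38.p6), on the strand of the gene. The capitals mark the match to TGACNNNGC, which in all 3 genes reads on the opposite strand.

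Gclm, chr3:122245397-122245556, plus strand: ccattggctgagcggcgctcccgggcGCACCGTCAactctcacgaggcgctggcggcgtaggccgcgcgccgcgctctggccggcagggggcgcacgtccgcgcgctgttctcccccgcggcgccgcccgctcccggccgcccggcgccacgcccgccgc
Mgst1, chr6:138140367-138140526, plus strand: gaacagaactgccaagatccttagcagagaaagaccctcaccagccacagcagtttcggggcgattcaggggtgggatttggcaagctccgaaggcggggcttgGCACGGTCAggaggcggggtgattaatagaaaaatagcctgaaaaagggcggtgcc
Sod1, chr16:90220602-90220761, plus strand: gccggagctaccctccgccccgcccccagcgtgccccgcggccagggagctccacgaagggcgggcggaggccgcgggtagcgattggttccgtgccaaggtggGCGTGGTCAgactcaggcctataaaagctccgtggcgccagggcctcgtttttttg

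The match began 134 bases before the start in Gclm and 56 bases before it in Mgst1 and Sod1. In the window of 250 bases before to 50 after each start, searched on both strands, the core was found in 9 of the 32 members with a promoter sequence (28.1%), beside 3781 of 27025 genes and 12.4% of all 32851 promoters. The 9 members were Gclm, Gsta3, Gstm5, Mgst1, Nfe2l2, Prdx1, Sod1, Srxn1 and Txnrd1. Of the 8 genes called lower, 6 had a promoter sequence, and 2 of these held the core. The match in Prdx1 contains the AP-1 site TGACTCA and those of the other 8 do not. The core of the metal response element, which the zinc-sensing factor Mtf1 binds, was searched as TGCACNC or TGCGCNC and was found in 8 of the 32 members (25.0%), beside 28.2% of genes. A match of this core in Gclm overlaps the antioxidant match. A match is a stretch of letters and not a shown binding site.

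Glutathione transferases differed from gene to gene, and the widest differences of the whole list were among them. Gstm2, a cytosolic transferase of the mu class, had a signal of 747 in the Slc39a13-KO array, against 6068 in wild-type, an 8.12-fold difference by 1 probe set. Gsto1, an omega-class enzyme that also reduces dehydroascorbate, had signals of 2190 and 2747 by its 2 probe sets in the Slc39a13-KO array, against 12285 and 14167 in wild-type. The difference was 5.38-fold, or -2.43 on the log2 scale (SD 0.09 between 2 probe sets), and the probe sets of Gsto1 were thus close to each other. Gsta4, an alpha-class enzyme that detoxifies aldehydes from lipid peroxidation, had a signal of 1304 in the Slc39a13-KO array, against 2968 in wild-type. The difference was 2.28-fold by 1 probe set, and with poly-A scaling Gsta4 was not called (log2 ratio -0.15).

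The other 7 cytosolic and mitochondrial transferases were not called. Gstm1 was read by 4 probe sets that lay on both sides of 0, from -0.83 to 0.45, with a mean log2 ratio of -0.07. Gstm5 had a signal of 9010 in the Slc39a13-KO array, against 5481 in wild-type, a log2 ratio of 0.72. The mu-class genes Gstm1, Gstm2 and Gstm5 therefore did not share a direction. They are close paralogs, and how far their probe sets read each other's transcripts was not tested.

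Gstp1, of the pi class, had a signal of 10593 in the Slc39a13-KO array and 16693 in wild-type, a log2 ratio of -0.66. Gstk1, the transferase of mitochondria and peroxisomes, had 1346 in the Slc39a13-KO array and 707 in wild-type. At a log2 ratio of 0.93 it was the uncalled member closest to the threshold. Gstt1, of the theta class, had 937 and 790 in the Slc39a13-KO and wild-type arrays. Gstt2, of the same class, and Gsta3 were close to the floor. Gstt2 had a signal of 114 in the Slc39a13-KO array and lay below the floor in wild-type. Gsta3 had signals of 149 and 91.5 in wild-type, and both of its probe sets lay below the floor in the Slc39a13-KO array. With the floor at the 30th percentile Gsta3 was called lower, at a log2 ratio of -1.74. With no floor Gsta3 was again called lower, on Slc39a13-KO signals of 7.90 and 2.11.

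Of the 3 microsomal transferases, membrane enzymes of which some also act as peroxidases, 1 was called. Mgst1 had a signal of 1379 in the Slc39a13-KO array, against 6464 in wild-type, a 4.69-fold difference. This rests on 1 probe set designed to read more than 1 transcript of the gene, since the second probe set of Mgst1 lay below the floor in both arrays. With no floor that dim probe set entered the mean, and the log2 ratio of Mgst1 was -1.49 in place of -2.23. Mgst2 had 272 in the Slc39a13-KO array and 157 in wild-type (log2 ratio 0.79). Mgst3 had 994 in the Slc39a13-KO array and 1266 in wild-type, a log2 ratio of -0.35.

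**Figure D3:**
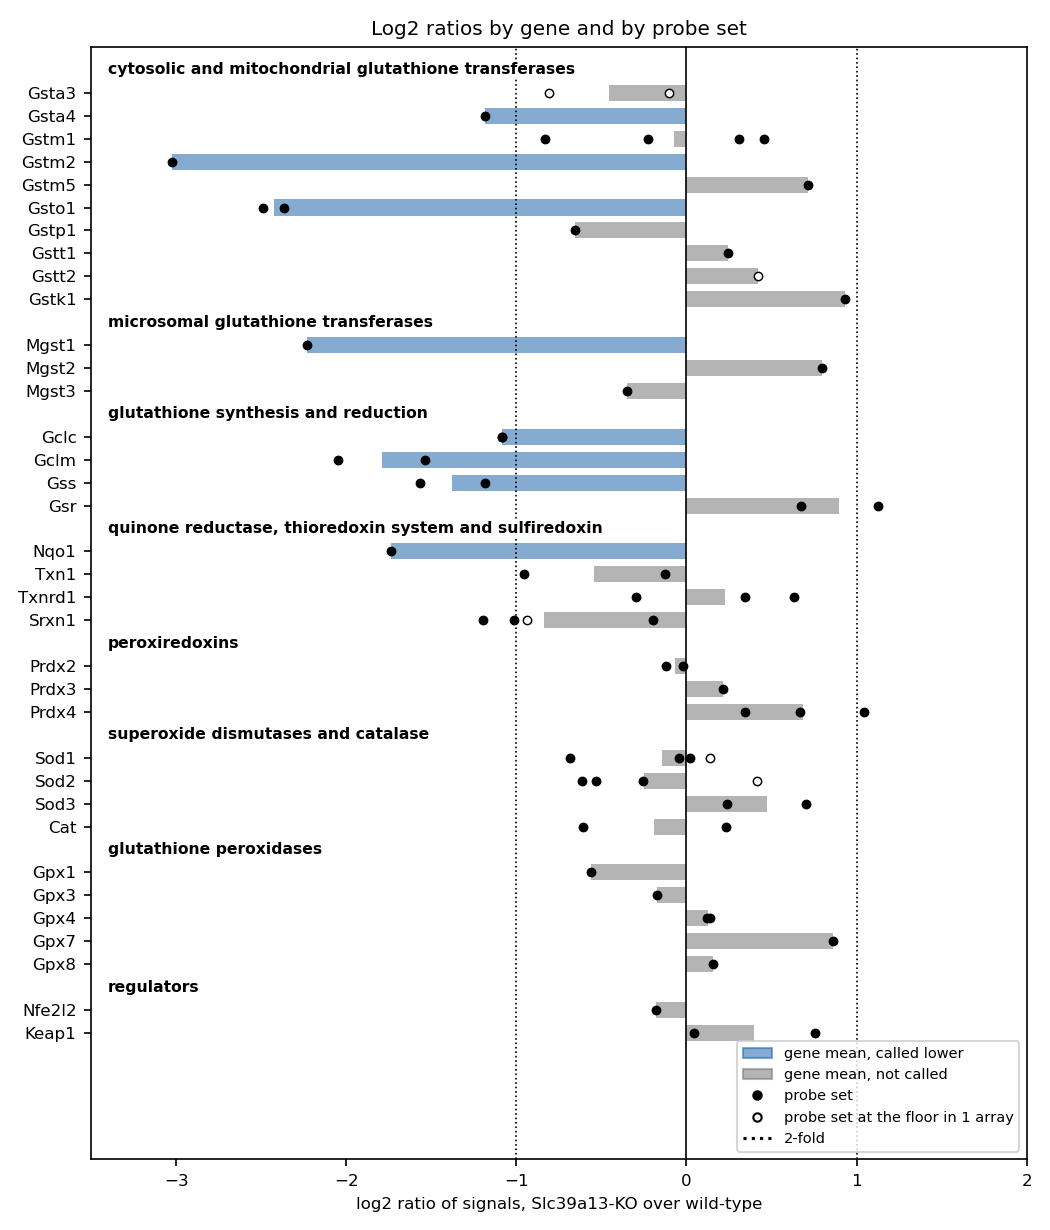
Difference between the arrays (horizontal axis, log2 of Slc39a13-KO over wild-type signal) for the 35 measured genes, grouped by role, with bars for the gene mean and points for single probe sets, open where 1 array lay at the floor. Blue bars are the 8 genes called lower, every point of which lies past the dotted line at 2-fold; grey bars, those of peroxiredoxins, superoxide dismutases and glutathione peroxidases among them, were not called.

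Nqo1, a quinone reductase widely used as a readout of Nrf2 activity, had a signal of 977 in the Slc39a13-KO array, against 3254 in wild-type. The difference was 3.33-fold by 1 probe set, and with poly-A scaling Nqo1 was not called (log2 ratio -0.70). Srxn1, sulfiredoxin, which repairs overoxidised peroxiredoxins, had 4 probe sets that were all below 0, from -1.19 to -0.20. Its signals were 567, 306, 270 and, in 1 probe set, below the floor in the Slc39a13-KO array, against 1143, 351, 617 and 163 in wild-type. The mean of at least 1.78-fold was not called, but Srxn1 was called lower in 4 of the 9 alternatives tried, with median scaling, the floor at the 30th percentile, no floor and the brightest probe set.

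The thioredoxin pair was not called. Txn1, the cytosolic thioredoxin, had signals of 10217 and 159 by its 2 probe sets in the Slc39a13-KO array, against 19819 and 174 in wild-type, with log2 ratios of -0.96 and -0.13. The bright probe set thus lay just short of 2-fold and the dim one near 0. Txnrd1, the selenoenzyme that reduces thioredoxin, had 3 probe sets on both sides of 0, from -0.29 to 0.63, and a mean of 0.23.

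The 3 peroxiredoxins that could be read, thiol peroxidases of different compartments, were not called. Prdx2, of the cytosol, had signals of 11188 and 1803 in the Slc39a13-KO array, against 12168 and 1827 in wild-type. Its log2 ratio was -0.07 (SD 0.07 between 2 probe sets), one of the smallest differences of the list. Prdx3, of mitochondria, had 2475 in the Slc39a13-KO array and 2132 in wild-type, a log2 ratio of 0.22. Prdx4, of the endoplasmic reticulum, had 3 measured probe sets, all above 0, and a mean of 1.61-fold, or 0.69 on the log2 scale (SD 0.35 between 3 probe sets). Prdx4 was called higher in 3 of the 9 alternatives, with poly-A scaling (log2 ratio 1.72), with the brightest probe set (1.05) and with only probe sets free of shared-transcript suffixes, where that brightest probe set represents it.

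The zinc enzymes Sod1 and Sod3 were not called in either direction. Sod1, the copper-zinc superoxide dismutase of the cytosol, had signals of 6137, 7254, 483 and 93.6 by its 4 measured probe sets in the Slc39a13-KO array. Its wild-type signals by the same probe sets were 6336, 11644, 475 and, in the last, below the floor. The log2 ratios of these probe sets were -0.05, -0.68, 0.02 and 0.14, and their mean was -0.14 (SD 0.37 between 4 probe sets). The probe set at -0.68 was the brightest and the one with a shared-transcript suffix, and without such probe sets the mean was 0.04, so the sign of the small Sod1 difference was not fixed. Ccs, which loads copper into Sod1, had a log2 ratio of -0.22.

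Sod3, the secreted copper-zinc enzyme that binds to the matrix, had signals of 5309 and 2648 by its 2 probe sets in the Slc39a13-KO array, against 4491 and 1628 in wild-type. Both were a little higher, with log2 ratios of 0.24 and 0.70 and a mean of 0.47 (SD 0.33 between 2 probe sets), a 1.39-fold difference. With poly-A scaling Sod3 was called higher, at a log2 ratio of 1.51 beside 0.95 for all genes. Sod2, the manganese enzyme of mitochondria, had a mean of -0.25 over 4 probe sets from -0.62 to 0.41. Cat, catalase of peroxisomes, had signals of 3519 and 3388 in the Slc39a13-KO array, against 3001 and 5166 in wild-type, so that its 2 probe sets lay on different sides of 0. The 3 superoxide dismutases and catalase were all within 1.5-fold.

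Of the 5 glutathione peroxidases 0 were called. With poly-A scaling Gpx4, Gpx7 and Gpx8 were called higher, at log2 ratios of 1.17, 1.90 and 1.19 beside 0.95 for all genes. Gpx1, the abundant cytosolic selenoenzyme, had a signal of 10880 in the Slc39a13-KO array and 16064 in wild-type, a log2 ratio of -0.56. Gpx4, which reduces lipid peroxides within membranes, had signals of 14202 and 14321 in the Slc39a13-KO array, against 12895 and 13193 in wild-type. Its log2 ratio was 0.13 (SD 0.01 between 2 probe sets). Gpx3, the secreted plasma form, had 1149 in the Slc39a13-KO array and 1296 in wild-type. Gpx7 and Gpx8 reside in the endoplasmic reticulum. Gpx7 had 4845 in the Slc39a13-KO array and 2662 in wild-type, a log2 ratio of 0.86, and Gpx8 had 9951 in the Slc39a13-KO array and 8949 in wild-type, a log2 ratio of 0.15.

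The transcripts of the 2 regulators were not called. Nfe2l2 (Nrf2) had a signal of 2879 in the Slc39a13-KO array and 3254 in wild-type, a log2 ratio of -0.18 by 1 probe set. Keap1 had signals of 1132 and 622 in the Slc39a13-KO array, against 1100 and 368 in wild-type. Its log2 ratios were 0.04 and 0.76, with a mean of 0.40 (SD 0.51 between 2 probe sets). With poly-A scaling Keap1 was called higher, at a log2 ratio of 1.44 beside 0.95 for all genes. Nrf2 is controlled mainly through its protein, which these arrays do not measure.

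Other genes of the same pathways were taken from 4 lists made by function, also with earlier results of these data known. Of their 63 measured genes 10 (15.9%) were called lower and 5 (7.94%) higher, beside 5.93% and 8.01% of all genes. With poly-A scaling 1 was called lower and 24 higher, beside 1.72% and 46.5% of all genes. Of 22 measured further targets and partners of Nrf2, 5 (22.7%) were called lower and 0 higher, with a median of -0.37. Log2 ratios were above 0 in 6 of the 22 and below 0 in 16. The small Maf proteins dimerise with Nrf2 on DNA, and Maff had a signal of 172 in the Slc39a13-KO array, against 1350 in wild-type, a 7.85-fold difference. Mafk, of the same family, was 2.08-fold lower, with 704 in the Slc39a13-KO array and 1465 in wild-type. Mafg, also of this family, was not called (log2 ratio -0.21). Aox1, aldehyde oxidase, was 4.08-fold lower, with 135 in the Slc39a13-KO array and 551 in wild-type. Cbr3, a carbonyl reductase, was 3.13-fold lower, with 1038 in the Slc39a13-KO array and 3247 in wild-type, and Osgin1 was 2.11-fold lower. Hmox1, heme oxygenase and a classical Nrf2 target, had 1903 in the Slc39a13-KO array and 3369 in wild-type and was not called (log2 ratio -0.82). Pgd, which makes NADPH, was also just short of 2-fold (log2 ratio -0.95, SD 0.27 between 4 probe sets). Ugdh had the highest log2 ratio of this list, 0.75, and was not called.

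Of 22 measured further glutathione genes, 2 (9.09%) were called lower and 4 (18.2%) higher, beside 5.93% and 8.01% of all genes. Their median was -0.18. Oplah, the oxoprolinase of glutathione turnover, had a signal of 727 in the Slc39a13-KO array and was below the floor in wild-type, at least 8.54-fold higher. The transferases Gstt3 and Gstm3 were 3.40-fold and 2.87-fold higher, and Ggt7 at least 2.09-fold. Ggct, which degrades gamma-glutamyl peptides and acts just before Oplah, was 2.76-fold lower (339 in the Slc39a13-KO array and 933 in wild-type), and the glutaredoxin Glrx5 2.18-fold lower. The cystine transporter Slc7a11, which supplies cysteine for glutathione, lay below the floor in both arrays.

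Of 14 measured genes of the thioredoxin and methionine sulfoxide reductase systems, 1 (7.14%) was called in each direction and the median was 0.14. Txnip, which binds and inhibits thioredoxin, had signals of 4767 in the Slc39a13-KO array and 1366 in wild-type as means of 2 probe sets, a 3.49-fold difference. Msrb1, a selenoenzyme that repairs oxidised methionine, was 2.23-fold lower. Of 5 measured oxidant-producing enzymes, 2 (40%) were called lower and 0 higher, beside 5.93% and 8.01% of all genes. Cyba, the membrane partner of NADPH oxidases, was 3.62-fold lower (1697 in the Slc39a13-KO array and 6144 in wild-type). Xdh, xanthine oxidoreductase, was at least 2.01-fold lower, with 171 in wild-type and a signal below the floor in the Slc39a13-KO array. Its call thus rests on a dim signal at the threshold. Nox4, the oxidase of many mesenchymal cells, had a log2 ratio of 0.61.

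**Figure D4:**
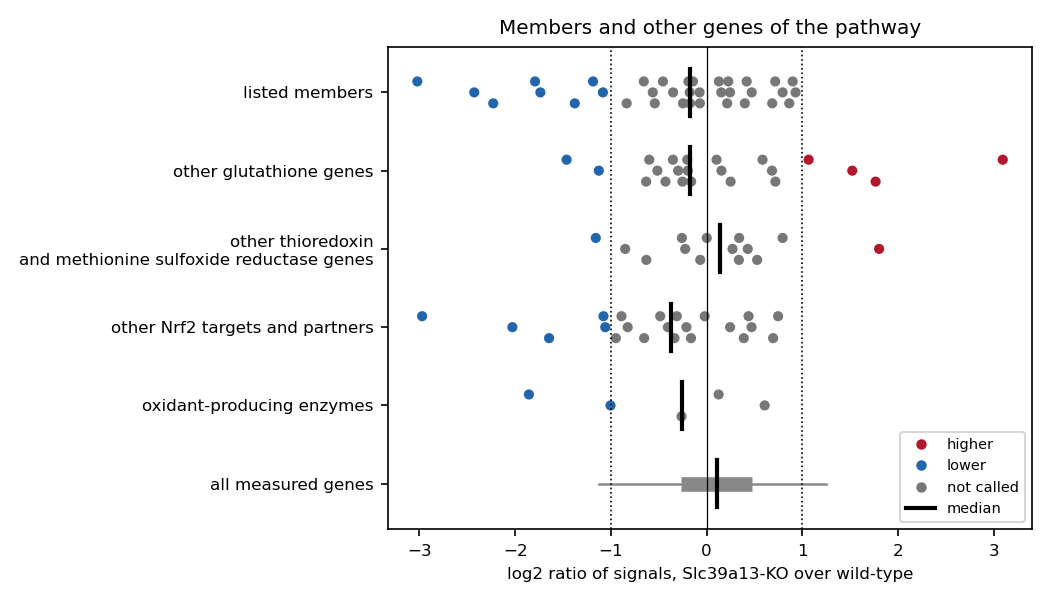
Difference between the arrays (horizontal axis, log2 of Slc39a13-KO over wild-type signal) for the 35 listed genes and for 4 lists of other genes of the pathway, each point 1 measured gene, red if called higher, blue if called lower and grey if not called, with a black bar at the list median. The bottom row gives all measured genes as the median, the interquartile range (thick bar) and the 5th to 95th percentiles (thin line). The listed genes and the other Nrf2 targets reach far to the left. These 2 lists and the 5 oxidant-producing enzymes hold 0 genes called higher. With poly-A scaling 13 of the 35 listed genes were called higher, beside 46.5% of all genes.

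Signals of cell type markers differed between the same 2 arrays. Of 19 measured chondrocyte markers 18 were called higher, and their summed signal was 174801 in the Slc39a13-KO array and 9328 in wild-type. Of the 19, 13 had a probe set below the floor in wild-type and none below it in the Slc39a13-KO array. Acan and Cnmd, defining cartilage genes, were among these 13, and the other markers were above the floor in wild-type. Of 11 smooth muscle and pericyte markers 7 were called lower and 1 higher, with summed signals of 18674 in the Slc39a13-KO array and 46798 in wild-type. Of 14 measured macrophage markers 7 were called higher and 1 lower (summed signals 4778 in the Slc39a13-KO array and 1956 in wild-type), although Ptprc and Itgam were below the floor in both arrays. Of 5 measured adipocyte markers 3 were higher (3026 in the Slc39a13-KO array and 933 in wild-type), with Adipoq below the floor in both, and of 5 endothelial markers 1 was higher and 2 lower (765 in the Slc39a13-KO array and 1569 in wild-type). The 8 erythroid markers with a probe set, whose cells are rich in Cat and Prdx2, were below the floor in both arrays. In such bulk samples fewer cells of a type and less RNA per cell cannot be told apart, and the part of these cell markers in the antioxidant differences was not tested.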

How the data were processed

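Biotinylated cRNA from the total RNA of both cultures was read on Affymetrix Mouse Genome 430 2.0 arrays. The deposited values are linear signal intensities per probe set. They were taken to be MAS5 signals because the submitters' processing notes name MAS5 (version not stated in the sources used here) and the scale of the values fits it, although the study's methods name gcRMA. The table was used as it stands. The 2% trimmed mean was 500.003 in both arrays, so these values cannot show a difference in mRNA content per cell. There were 45101 probe sets including 64 controls. The platform annotation gave 1 symbol to 34945 probe sets, and 34741 matched the RefSeq table of GRCm38.p6 by gene ID.

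Signals, brought to 1 trimmed mean, were floored at the 50th percentile (85.1) and taken to log2 in Python 3.11.15 (numpy 2.4.6, pandas 2.3.3). Calls needed 2-fold, the fold of the study, and probe sets on 1 side. The steps were tested on simulated data. Where a signal lay at the floor, a ratio is given as at least N-fold. With 1 array per genotype no test was made, and the number of arrays limits the precision. Alternatives were 9 choices of scaling, floor, probe sets and call rule. Every member was named, with called genes of 4 lists of other pathway genes (at most 6 in each direction). Chosen after their values were seen were Alpl, Col1a1, Col1a2, Dmp1, Pth1r, Sp7, Acan, Cnmd, Hmox1, Pgd, Mafg, Ugdh, Ccs, Nox4 and Slc7a11. The members and lists were chosen with earlier results of these data known.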

Additional observations from a re-analysis of the deposited data

How the results depend on the processing

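The 8 genes called lower were called lower in 7 of the 9 alternatives. With only probe sets without shared-transcript suffixes 30 members were measured and 7 of the 8 were called, since Mgst1 then had no measured probe set. With poly-A scaling 3 members were called lower and 13 higher, and the median of the members was 0.86 in place of -0.17. On that scale 1 other gene of the pathway was called lower and 24 higher, in place of 10 and 5. Of all genes, 1.72% were then called lower and 46.5% higher. Other pathway genes called higher numbered 8 with no floor, but 3 once signals up to the 70th percentile were floored. With the brightest probe set, and with only probe sets without suffixes, 1 member (Prdx4) was called higher in place of 0. Over the 8 alternatives other than poly-A scaling, 7 to 10 members were called lower and the median ran from -0.42 with median scaling to -0.09 when the floor was lowered to the 30th. The median of the members lay below that of all genes as reported and in each of the 9 alternatives, by 0.09 with poly-A scaling to 0.37 with the brightest probe set. No paired analysis was possible because each genotype had 1 array, and neither leaving out an array nor a replicate check could be made. Values of genes read by 1 probe set (17 of 35), and signals near the floor, are the least certain.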
